A study of Homo sapiens with 6 samples.

Results

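The 26 genes described here encode nucleoporins, the proteins that build the nuclear pore complex, and they are 26 of the 18905 genes measured in a genome-wide CRISPR interference (CRISPRi) screen. They were taken by name, as every gene called NUP followed by a number (with L, as in NUP210L, allowed) together with AAAS, RAE1, TPR, NDC1, POM121 and RANBP2; SEC13 and SEH1L, which also work outside the pore, were left out of the rule. The screen used HEK293 FLP In cells, a line derived from human embryonic kidney into which a transgene can be recombined at a fixed site. They carried a stable transgene for a delta opioid receptor with the recycling sequence of the mu opioid receptor at its tail and the peroxidase APEX2, and dCas9-KRAB-BFP, a cleavage-dead Cas9 joined to a repressor, which shuts down transcription at the start site that a single guide RNA (sgRNA) selects. The cells had been expanded from clonal populations. After 8 days of knockdown per the labels, every library's cells received 10 μM of the opioid peptide DADLE for 90 min, and no library came from cells without agonist. The cells then reacted with AMPLEX UltraRed (AUR), which APEX2 makes fluorescent, and the top and bottom quartiles of fluorescence were sorted. Each of 3 sublibraries (H17, H23 and H456) gave 1 library per quartile, 6 in all, without replicates.

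The nuclear pore complex is the channel through which proteins and RNA pass the nuclear envelope. Scaffold nucleoporins form its outer and inner rings, membrane-spanning ones anchor it, and those rich in phenylalanine-glycine (FG) repeats line the channel and bind transport receptors. Filaments on the cytoplasmic face complete mRNA export, and the basket on the nuclear face receives cargo. Many nucleoporins are needed for growth of cultured human cells, and any mRNA, that of a receptor transgene included, leaves the nucleus through the pore.

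The library targets each gene around its transcription start. The DNA just upstream of the start is therefore shown for the nucleoporins with the lowest p values among the nucleoporins. None of these passed the correction for multiple testing in the screen. RefSeq promoter windows (GRCh38.p14) existed for 25 of the 26 genes, all but NUP43. Each sequence gives the 150 bases that end just before the annotated start, 5′ to 3′ on the strand of the gene, and capitals mark the letters CCGGAAG, the core that ETS factors bind, or CCAAT, on either strand.
AAAS, chr12:53321611-53321760, minus strand: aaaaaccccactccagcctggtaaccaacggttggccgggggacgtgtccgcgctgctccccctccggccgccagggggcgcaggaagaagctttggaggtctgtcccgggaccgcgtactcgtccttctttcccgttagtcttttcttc
NUP153, chr6:17706926-17707075, minus strand: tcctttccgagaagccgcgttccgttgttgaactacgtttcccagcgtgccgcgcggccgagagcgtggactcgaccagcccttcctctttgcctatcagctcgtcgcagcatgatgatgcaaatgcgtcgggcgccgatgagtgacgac
NUP37, chr12:102120115-102120264, minus strand: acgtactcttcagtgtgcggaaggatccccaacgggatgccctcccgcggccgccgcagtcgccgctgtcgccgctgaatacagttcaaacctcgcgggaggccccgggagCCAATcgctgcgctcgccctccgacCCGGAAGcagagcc
NUP54, chr4:76148398-76148547, minus strand: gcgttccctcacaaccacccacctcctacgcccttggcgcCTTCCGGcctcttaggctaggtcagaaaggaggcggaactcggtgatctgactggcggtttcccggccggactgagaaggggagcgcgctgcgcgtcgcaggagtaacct
POM121, chr7:72879207-72879356, plus strand: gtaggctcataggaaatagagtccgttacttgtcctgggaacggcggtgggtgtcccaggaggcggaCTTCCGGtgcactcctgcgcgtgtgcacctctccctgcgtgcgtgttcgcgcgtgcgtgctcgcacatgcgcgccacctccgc

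The ETS core lies in the stretches of NUP37, NUP54 and POM121. Over windows of 300 bases around the start, CCGGAAG was found on either strand at 8 of the 25 nucleoporins, or 32.0%, against 10.3% of 35116 promoters in the table. Besides NUP37, NUP54 and POM121, these were NUP107, NUP214, NUP35, NUP50 and NUP88, and of the 8 genes, 4 had a positive phenotype in the screen and 4 (NUP107, NUP35, NUP50 and NUP88) a negative one. CCAAT was found at 11 of 25, or 44.0%, against 34.6%, and TGCGCA, a part of the site of the factor NRF1, at 3 of 25 (NUP50, NUP62 and TPR), or 12.0%, against 8.24%. TATAAA, the TATA box, was in 0 of 25 windows against 11.5% of all. The nucleoporin windows were rich in G and C, with a median of 63.3% against 58.7% for all promoters, and held a median of 26 CpG against 14. Windows of all promoters include those of noncoding genes, and a match of letters does not show a bound site.

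The measure throughout is the phenotype of an sgRNA, the log2 ratio of its read shares in the top and the bottom quartile, from which the median ratio of the nontargeting control (NTC) sgRNAs in the same sublibrary was subtracted. A negative phenotype therefore means that cells with the sgRNA were more frequent in the bottom quartile, at lower fluorescence. The phenotype of a gene is the mean over its sgRNAs, with the SD over sgRNAs, and its p comes from comparing these sgRNAs with the NTC sgRNAs by the Mann-Whitney U test (exact, two-sided), adjusted by Benjamini-Hochberg across all 18905 genes. The libraries held 23426498 to 50486627 reads. The NTC sgRNAs, 553 to 739 per sublibrary, had an SD of 0.47 in H17, 0.28 in H23 and 0.30 in H456. With 1 library per quartile, every p value here measures the spread among sgRNAs in 1 sort and not between independent cultures.

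Each nucleoporin was listed with 10 sgRNAs at 1 start site, 260 in all, of which 130 had no reads in any library and 130 were analysed, 5 per gene. Of the 26 genes, NDC1 was in H17, 12 were in H23 and 13 were in H456. All 130 sgRNAs with reads passed the filter of 50 reads in at least 1 library of the sublibrary. They had 140 to 3257 reads in the bottom quartile (median 1175) and 165 to 2844 in the top quartile (median 929). Read numbers alone gave these phenotypes an SD of 0.0404 to 0.16, which covers counting error only, since reads amplified by PCR without molecular identifiers are not independent molecules.

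No nucleoporin was called. At an adjusted p below 0.05, 0 of 26 passed, against 90 of 18905 genes, or 0.476%, and the lowest adjusted p among the 26 was 0.499. At an unadjusted p below 0.05 there were 6 of 26: NUP153, AAAS and NUP43 with negative phenotypes and NUP54, NUP37 and POM121 with positive ones. Among all genes, the same limit took 766 of negative phenotype, or 4.05%, and 769 of positive phenotype, or 4.07%. The share was 23.1% of the nucleoporins in both directions together against 8.12% of all genes, and the 26 were not tested as a group. Without the strongest sgRNA of each gene, 0 of 26 passed the unadjusted limit, against 4.05% of all genes. That setting picks the sgRNA to leave out by its own phenotype and keeps all controls, which by itself tends to raise p. AAAS and NUP43 also missed the unadjusted limit against olfactory receptor sgRNAs, NUP43 with a minimum of 1 read, and POM121 with the libraries thinned to equal totals. NUP88, at 0.0529, passed it in 3 alternatives (exact p = 0.044 to 0.0493), with a minimum of 50 reads in both libraries, with 10 added to every count and with thinned libraries. Phenotypes were negative for 17 of the 26, against 49.6% of all genes, and their median was −0.06, against 0.00 for all genes. Gene phenotypes ran from −0.32 (NUP98) to 0.31 (NUP188).

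**Figure D1:**
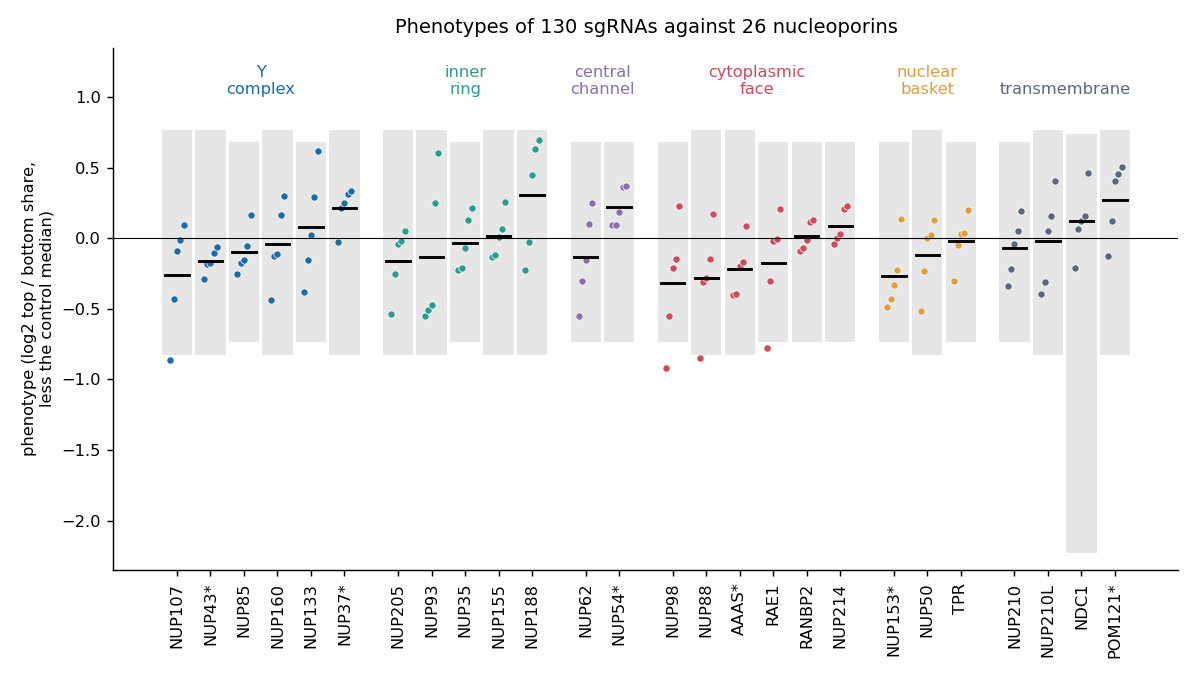
Each point is the phenotype of 1 sgRNA (y axis, log2 of top over bottom share, less the NTC median), and the black bar is the mean of the 5 sgRNAs of a gene. Genes (x axis) are grouped by their place in the pore, the grey boxes reach from the 1st to the 99th NTC percentile in the gene's sublibrary, and an asterisk marks an unadjusted p below 0.05. Of 130 points, 126 lie inside the boxes, and 4, of NUP98, NUP107, NUP88 and RAE1, lie below.

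Single sgRNAs mostly stayed within the range of the controls. Below the 1st percentile of the NTC sgRNAs lay 4 of 130, against 1.01% of the 101314 analysed sgRNAs that target genes, and above the 99th percentile lay 0 of 130, against 1.11%. The 4 were 1 each of NUP98, NUP107, NUP88 and RAE1. By sign, 71 of the 130 sgRNAs were negative and 59 positive, and the share among all sgRNAs was not counted. All 5 sgRNAs had the same sign for 2 genes, NUP43 (negative) and NUP54 (positive), against 9.16% of the 17304 genes with 5 sgRNAs. The median SD over sgRNAs was 0.24 for the nucleoporins and 0.24 for all genes. A mean larger in size than the SD over its own sgRNAs was found for NUP153, AAAS, NUP43, NUP54, NUP37 and POM121 alone. How many of all genes meet this limit was not counted. These 6 are also the genes with an unadjusted p below 0.05. Both measures use the same 5 phenotypes of a gene, so that the overlap is no separate evidence.

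The Y complex, the repeating scaffold unit of the outer rings, was represented by 6 genes. NUP43, a small beta-propeller protein on an arm of the Y, was the most even of the 26. Its sgRNAs had 1098, 2495, 695, 1655 and 822 reads in the bottom quartile and 529, 1292, 361, 906 and 463 in the top quartile, for phenotypes of −0.29, −0.18, −0.18, −0.10 and −0.06. All 5 were negative and small, with a mean of −0.16 ± 0.09 (SD, n = 5, exact p = 0.0477, adjusted p = 0.602). NUP37, also a small beta-propeller protein of the Y, had the opposite sign: 3126, 1683, 961, 1177 and 1557 reads at the bottom and 1802, 1145, 671, 860 and 1155 at the top. These gave −0.03, 0.21, 0.25, 0.31 and 0.34, a mean of 0.22 ± 0.15 (exact p = 0.0262, adjusted p = 0.51). The sgRNA with most reads stood apart, near 0. The other 4 values lay close together, and so did the positions of these sgRNAs, 310 to 352 bases from that sgRNA.

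NUP107, at the stem of the Y, had a lower mean than NUP43 (−0.26 ± 0.39) but a wider spread, with an exact p of 0.134. It rested on 1 sgRNA with 1865 reads at the bottom and 602 at the top, at −0.86, while the other 4 ran from −0.43 to 0.10, and the mean without it was −0.11. NUP133, which joins NUP107 at the stem, had 0.08 ± 0.39, and its sgRNAs ran from −0.38 to 0.62. NUP85 and NUP160, larger arm proteins, had −0.10 ± 0.16 and −0.04 ± 0.29. Without the strongest sgRNA, NUP133 and NUP160 changed sign, to −0.05 and 0.06, and of the 6 genes only NUP43 and NUP37 had an unadjusted p below 0.05.

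In the inner ring, sgRNAs against the same gene fell on both sides of 0 for each of its 5 genes, as for every other nucleoporin except NUP43 and NUP54. NUP188, a large solenoid protein, had the highest phenotype of the 26, 0.31 ± 0.41 (exact p = 0.116). Its sgRNAs fell into 3 at 0.45, 0.63 and 0.70 and the other 2 at −0.23 and −0.02. The one at 0.70 had 771 reads at the bottom and 734 at the top, in a sublibrary whose bottom library held 50486627 reads and whose top library held 29611047. NUP93, the linker of the ring, had the widest spread, −0.14 ± 0.53, with 3 sgRNAs between −0.55 and −0.47 and the others at 0.25 and 0.60. Its mean without the strongest sgRNA was −0.32, and its median was −0.47. NUP205, the paralog of NUP188, had −0.16 ± 0.24, and NUP155 and NUP35, which touch the membrane, had 0.02 ± 0.16 and −0.03 ± 0.20. No inner ring gene reached an unadjusted p of 0.05, and the paralogs NUP188 and NUP205 had opposite signs, a difference that was not tested.

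The central channel was represented by NUP62 and NUP54, FG nucleoporins of the same complex. NUP54 had the lowest p of the 26: 982, 1399, 1281, 665 and 892 reads at the bottom and 1243, 1774, 1728, 1013 and 1366 at the top, for phenotypes of 0.09, 0.10, 0.19, 0.36 and 0.37. All 5 were positive, and the mean was 0.22 ± 0.14 (exact p = 0.0241, adjusted p = 0.499). NUP62 had −0.13 ± 0.32, with sgRNAs from −0.55 to 0.25. The sgRNAs at either end, with 235 and 140 reads at the bottom and 190 and 197 at the top, were the ones with the fewest reads at the bottom. Of the 5 NUP62 sgRNAs, 3 are listed under ATF5, a transcription factor gene, as well, so that the values of NUP62 are not those of NUP62 alone.

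At the cytoplasmic face lay NUP98 and NUP88, the lowest of the 26 by mean. Without the strongest sgRNA of each gene, the lowest were NUP93 (−0.32) and NUP153 (−0.21) instead. NUP98 is an FG nucleoporin of both faces that works with RAE1 in mRNA export, and its precursor also yields NUP96, a Y complex protein. Its sgRNAs had 263, 486, 1764, 707 and 374 reads at the bottom and 165, 394, 1808, 757 and 520 at the top, for −0.92, −0.55, −0.21, −0.15 and 0.23. The mean was −0.32 ± 0.43 (exact p = 0.0672, adjusted p = 0.654), the sgRNA of fewest reads being the lowest, and without it the mean was −0.17. NUP88, which anchors the cytoplasmic filaments with NUP214, had −0.28 ± 0.37 (exact p = 0.0529, adjusted p = 0.617), with 1 sgRNA of 582 and 190 reads at −0.85 and a mean of −0.14 without it. NUP214 itself had 0.09 ± 0.13. Neither NUP88 nor NUP214 was called, and the difference between them was not tested.

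AAAS encodes ALADIN, the protein mutated in triple A syndrome, which NDC1 holds at the pore. Its sgRNAs had 1030, 2012, 1295, 2475 and 2558 reads at the bottom and 458, 897, 664, 1294 and 1593 at the top, for −0.40, −0.40, −0.20, −0.17 and 0.08. Of the 5, 4 were negative and the one of most reads was positive, with a mean of −0.22 ± 0.20 (exact p = 0.0428, adjusted p = 0.587). RAE1, the mRNA export partner of NUP98, had −0.18 ± 0.38. One of its sgRNAs, with 1678 reads at the bottom and 1162 at the top, lay at −0.78, and the mean of the others was −0.03. RANBP2, the RAN-binding filament protein, had 0.01 ± 0.10, the smallest phenotype in size and among the narrowest in spread.

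Of the 3 nuclear basket genes, NUP153 alone had an unadjusted p below 0.05. NUP153, the FG nucleoporin that ties the basket to the ring, had 954, 892, 1248, 2503 and 430 reads at the bottom and 806, 784, 1177, 2541 and 561 at the top. The phenotypes were −0.49, −0.43, −0.33, −0.23 and 0.14, and the mean was −0.27 ± 0.25 (exact p = 0.0266, adjusted p = 0.512). The positive sgRNA was the one of fewest reads. NUP50, its partner in the release of imported cargo, had −0.12 ± 0.26 (exact p = 0.418), and TPR, which forms the filaments of the basket, had −0.02 ± 0.18 (exact p = 0.928). Taken as the median of their sgRNAs, both turned positive, to 0.004 for NUP50 and 0.03 for TPR.

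The transmembrane nucleoporins gave positive values for POM121 and NDC1. POM121 had 2159, 1027, 1396, 581 and 320 reads at the bottom and 1160, 655, 1085, 468 and 267 at the top, for −0.13, 0.12, 0.40, 0.46 and 0.51, a mean of 0.27 ± 0.27 (exact p = 0.0409, adjusted p = 0.582). The values were higher for the sgRNAs of fewer reads, with the exception of the one at 0.40, whose counts are listed for PRKRIP1 and LOC100289561 too. POM121C, the near-identical copy of POM121 that the rule did not take, had 0.26 ± 0.23 (exact p = 0.0255, adjusted p = 0.506), and sgRNAs meant for either copy may act on both. The sgRNAs of POM121C were sparse, with a median abundance (explained below) of −1.52, against −1.45 for NUP98, the lowest of the 26. NDC1, which recruits ALADIN, had 0.12 ± 0.24, in the sublibrary with the widest controls. NUP210 and its paralog NUP210L had −0.07 ± 0.21 and −0.02 ± 0.33.

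**Figure D2:**
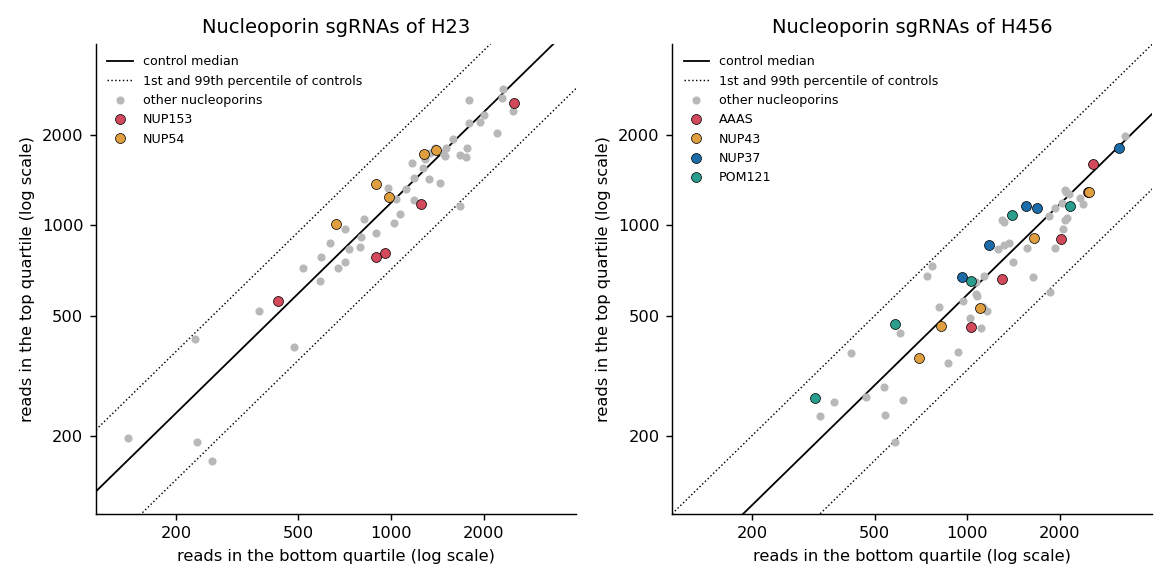
Reads of each nucleoporin sgRNA in the bottom quartile (x axis) and in the top quartile (y axis), both on log scales, for H23 (left) and H456 (right). The solid line is the ratio of the median NTC sgRNA, the dotted lines are the 1st and 99th NTC percentiles, and colours mark the genes with an unadjusted p below 0.05. The 5 NUP54 points lie above the solid line and the 5 NUP43 points below it, all within the dotted lines.

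The depth of the sgRNAs differed between nucleoporins. Abundance here is the log2 of the mean share of an sgRNA over both quartiles against the median NTC sgRNA, and the median over the 5 sgRNAs of a gene ran from −1.45 (NUP98) to 0.54 (AAAS). Below −0.5 lay 6 of the 26, or 23.1%, against 20.6% of all genes. These were NUP98, NUP93 (−1.19), NUP160 (−0.85), NUP62 (−0.81), NUP85 (−0.57) and NUP214 (−0.51), members of 4 different places in the pore. Since no library from before growth was analysed here, a low start in the pool and loss of cells during the 8 days cannot be told apart. The sgRNAs of lower abundance had the larger phenotypes in size, with a Pearson r of −0.40 and a Spearman rho of −0.34 across 130 nucleoporin sgRNAs, against −0.35 and −0.28 across all 101314. These points share libraries, and 5 each share a gene. With the sign kept, r was 0.01 across the 130.

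**Figure D3:**
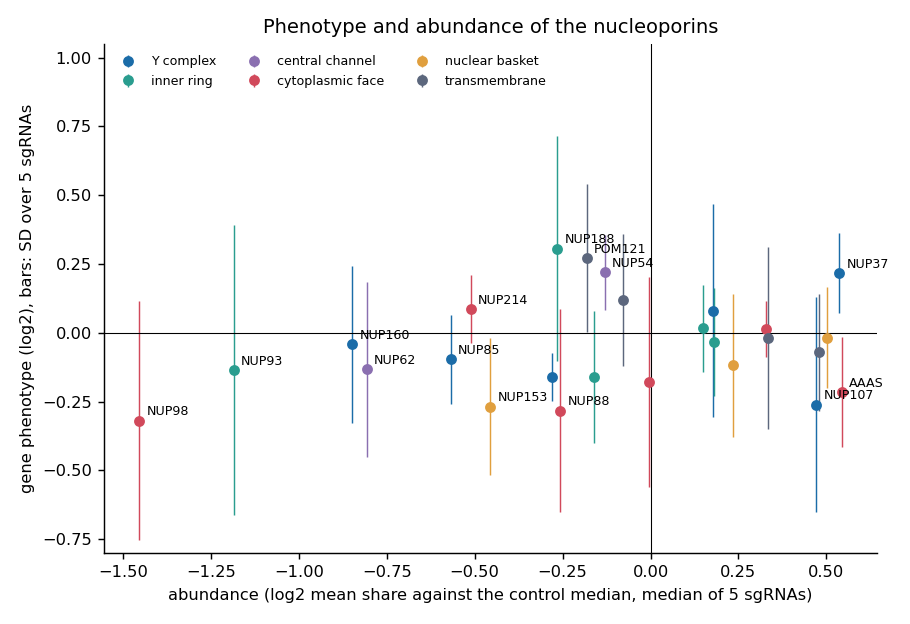
Gene phenotype (y axis, log2, bars are the SD over 5 sgRNAs) against the median abundance of the sgRNAs of the gene (x axis, log2 of the mean share against the NTC median) for the 26 nucleoporins, coloured by place in the pore. NUP98 and NUP93, at −1.45 and −1.19, have the lowest abundance and the longest bars, and the 6 genes with an unadjusted p below 0.05 lie between −0.46 and 0.54.

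CRISPRi can silence a neighbour whose start lies close by. For 6 nucleoporins, another gene had an sgRNA within 1000 bases of one of theirs. NUP88 lay 502 bases from RPAIN, which helps import replication protein A, and RPAIN had 0.46 ± 0.39 (exact p = 0.00445, adjusted p = 0.274), the opposite sign to NUP88. NUP98 lay 340 bases from PGAP2, a Golgi gene of GPI anchor remodelling, at −0.23 ± 0.22 (exact p = 0.0431, adjusted p = 0.588), the same sign as NUP98. TPR lay 624 bases from C1orf27 (ODR4), the homologue of a nematode receptor trafficking gene. C1orf27 had −0.60 ± 0.55 over 4 sgRNAs (exact p = 0.00854, adjusted p = 0.356), while TPR stood at −0.02. DOLK, next to NUP188, had 0.06, PARPBP, next to NUP37, had 0.15, and ATF5, which shares sgRNAs with NUP62, had −0.18. None of these neighbours was called, and whether the nucleoporin sgRNAs silenced them was not measured.

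Other genes of nuclear transport were read from 3 lists. Of 10 measured pore genes outside the rule, 0 were called and 2, or 20.0% against 8.12% of all genes, had an unadjusted p below 0.05, POM121C as above and GLE1, which activates the mRNA export helicase at the pore, at −0.22 ± 0.19 (exact p = 0.0437, adjusted p = 0.588). AHCTF1 (ELYS), which seeds pores on chromatin, had 0.15 ± 0.16. Of 32 transport receptors and Ran cycle genes, 0 were called and 3 had an unadjusted p below 0.05, or 9.38%, near the 8.12% of all genes. KPNA4, an importin alpha, had 0.33 ± 0.20 (exact p = 0.00301, adjusted p = 0.224), RCC1, which loads RAN with GTP, had −0.34 ± 0.22 (exact p = 0.00445, adjusted p = 0.274), and TNPO3, the importer of splicing factors, had 0.22 ± 0.18 (exact p = 0.0414, adjusted p = 0.582). The median of this list was 0.00, between −0.34 and 0.33, close to that of all genes.

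Among these lists, calls were made in that of mRNA export alone. Of its 25 measured genes, 2 were called, both negative, against 72 of 18905 genes called negative. MCM3AP, the scaffold GANP of the export complex TREX-2, had −0.62 ± 0.23 (5 of 5 sgRNAs negative, exact Mann-Whitney test, adjusted p = 0.0111), and THOC2, the scaffold of the THO complex, had −0.57 ± 0.31 (5 of 5 negative, adjusted p = 0.0258). The median abundance of their sgRNAs was −0.39 for MCM3AP and −0.96 for THOC2. Without the strongest sgRNA of each gene neither MCM3AP nor THOC2 was called (adjusted p = 0.173 for MCM3AP and 0.32 for THOC2, exact test), and THOC2 was not called against olfactory receptor sgRNAs either (adjusted p = 0.129). Leaving out the strongest sgRNA tends to raise p, as said above. DDX39B, the helicase that works with THO, had −0.58 ± 0.29 (exact p = 0.000632, adjusted p = 0.093). The lowest mean of the list was that of THOC5, −0.66 ± 0.95, which was not called (exact p = 0.00958, adjusted p = 0.376). The list had 17 negative genes of 25, a median of −0.15 and 10 genes with an unadjusted p below 0.05, or 40.0% against 8.12% of all genes. Of the 10, 9 were negative and 1 was positive, FYTTD1, an mRNA export adaptor, at 0.28 ± 0.16 (exact p = 0.0111, adjusted p = 0.387). The nucleoporins lay nearer 0, with 6 of 26 past a size of 0.25 (23.1%) against 10 of 25 export genes (40.0%) and 10.7% of all genes. The lists were chosen with earlier results of these data known, and the difference between them was not tested.

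**Figure D4:**
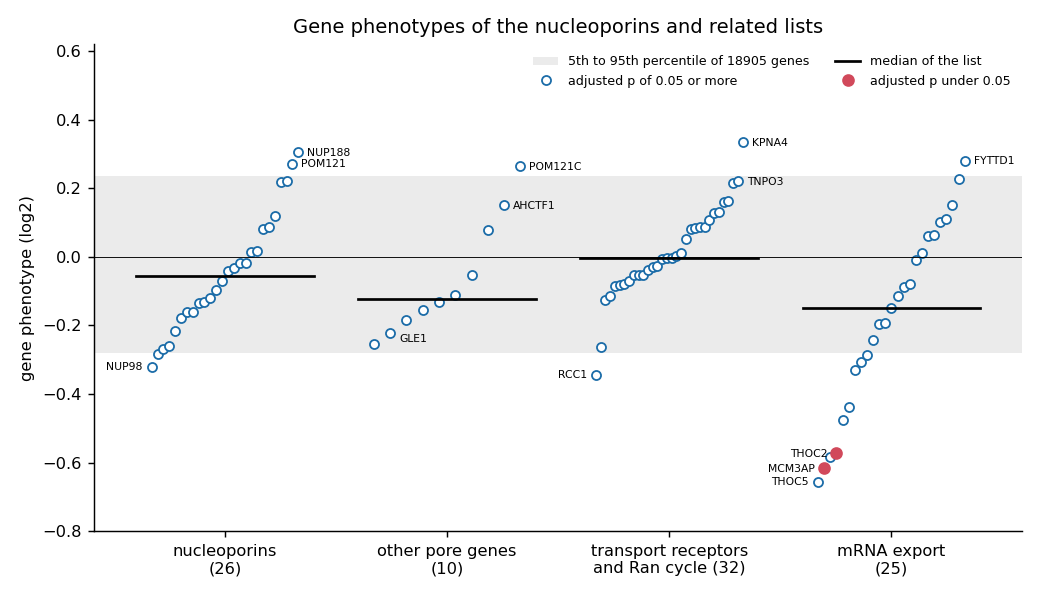
Gene phenotypes (y axis, log2) of the 26 nucleoporins and of 3 lists of related genes (x axis, with the number measured), in rising order within each list. Filled points have an adjusted p below 0.05, bars are list medians, and the grey band spans the 5th to the 95th percentile of all 18905 genes (−0.28 to 0.24). The filled points, MCM3AP and THOC2, are in the mRNA export list. Of the nucleoporins, NUP98 (−0.32) and NUP88 (−0.2833, against a lower edge of −0.2816) lie just below the band. NUP188 (0.31) and POM121 (0.27) lie above it.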

How the data were processed

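The deposited values were raw counts of reads per sgRNA. Per the methods, the authors amplified sgRNAs from genomic DNA, cropped the reads to the guide and counted them with ScreenProcessing, and no normalization was applied to the deposited counts. Sample titles gave the quartile, whereas the last letter of the library names points to the other quartile. The titles were used, and the names of the deposited files give the same quartiles as the titles. With top and bottom exchanged, every phenotype would change its sign, and no size or p would change. The label's 90 min of DADLE and 8 days of knockdown were used, which differ from the methods. A gene was assigned to 1 sublibrary by the majority of its sgRNAs, and sgRNAs with less than 10% of their reads there were left out. At least 50 reads in at least 1 of both libraries were required, and 1 was added to both counts where a count was 0. A start site needed 2 sgRNAs, and the site of lower p stood for the gene. The 15 alternatives changed the read minimum, the added count, the centring (with TMM factors from edgeR 4.0.16 or size factors from DESeq2 1.42.0 among others), the summary over sgRNAs, the start site, the depth and the comparison set. Neither edgeR nor DESeq2 served as a test, since 1 library per quartile leaves no residual degrees of freedom. The pseudogene threshold in the methods was not used here. Python 3.11.15 with numpy 2.4.6, pandas 2.3.3, scipy 1.17.1 and matplotlib 3.10.9 and R 4.3.3 were used, and the procedure was tested on simulated data.

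The members and the lists were chosen with earlier results of these data known. Every nucleoporin is named; values of each sgRNA are given for those with an unadjusted p below 0.05, and those singled out for NUP98, NUP88, NUP107, RAE1, NUP188, NUP93, NUP62 and NUP133 were chosen after they were seen. From the other lists, the called genes and the 3 of lowest unadjusted p were named, and neighbours by distance. THOC5 and FYTTD1 were named besides, after their values were seen. The guide sequences and the genome build of the sgRNA names are not given in the sources used here, so that only distances between sgRNAs are printed.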

Additional observations from a re-analysis of the deposited data

Results flagged for a closer look

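Reads of nucleoporin sgRNAs also appeared in the libraries of sublibraries to which they did not belong. These came to 1961 reads in all, or 0.652% of all reads of these sgRNAs. For 1 sgRNA of H456, 91 reads lay in the bottom quartile library of H23, more than any of the NTC sgRNAs of H456 had there, the highest of which had 52. In the other 11 pairings of a sublibrary with a foreign library, no nucleoporin sgRNA exceeded the highest control. These reads entered no phenotype.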

How the results depend on the processing

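No paired analysis was possible because each quartile of a sublibrary had 1 library, and leaving out a replicate was not possible for the same reason. Over 15 alternatives, 0 of the 26 nucleoporins were called in each. The number with an unadjusted p below 0.05 was 4 to 7 in 14 of them and 0 without the strongest sgRNA of each gene. There the test has fewer sgRNAs, the one left out is picked by its own phenotype, and the calls among all genes went from 90 to 22. The centring, the median over sgRNAs, the mean of the 3 strongest and the start site could not change the unadjusted p of a nucleoporin. Their agreement is therefore no check of it. With olfactory receptor sgRNAs as the comparison set the calls among all genes came to 50, and AAAS and NUP43 passed the unadjusted limit no longer. The number of negative genes was 15 to 17 and the median phenotype −0.10 to −0.03. Outside the NTC range lay 4 to 5 sgRNAs in 14 alternatives and 2 with a minimum of 1 read in either library. The centring, the summary over sgRNAs, the start site and the comparison set could not change this count. With a minimum of 1 read the 130 nucleoporin sgRNAs stayed the same, and the sgRNAs added were others, controls among them. The cause of the lower count was not tested. The sign was kept in all alternatives by 18 nucleoporins, and 8 reversed it in 13 cases. Of these 8, NUP50 had the largest phenotype in size, −0.12. Reversals were not counted among all genes. Without the strongest sgRNA, NUP133 had −0.0542, NUP155 −0.044, NUP160 0.0564, NUP35 0.014, RANBP2 −0.0154 and TPR 0.0534. With the median over sgRNAs, NUP210L had 0.0486, NUP50 0.004, RANBP2 −0.0141 and TPR 0.0311. With the 3 strongest sgRNAs, NUP160 had 0.0096. Thinned to the smaller total, NUP210L had 0.012 and RANBP2 −0.0033. Limits remain: knockdown was not measured, 5 sgRNAs per gene and 1 sort set the precision, and sgRNAs of few reads had the widest phenotypes.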
